A study of Zea mays with 4 samples.

Results

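The miR169 family of maize was measured in small RNA libraries of pollen and silk. Its members were taken as all entries of the deposited table of known miRNAs whose name starts with zma-miR169. There were 16 such names among the 270 entries of the table, of which 161 are known miRNAs. The 16 names have 8 distinct mature sequences, and each sequence was counted once and is called by all of its letters, as in miR169c/r. The table has 181 distinct sequences in all, 72 of them known. Tissues came from the inbred line B73, with 1 library for each of 4 tissues. MP was mature pollen, and GP was the same kind of pollen after 30 min in liquid germination medium, with germination over 90%. MS was mature silk, the stigma and style of the maize flower, which reached about 5 cm out of the bracts. PS was silk taken 30 min after it was dusted with excess pollen, from which loose pollen had been shaken off, so that PS still held adhering pollen and pollen tubes. There is no replicate of any tissue, so a test on reads compares 2 libraries and not the conditions.

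miR169 is a miRNA family of flowering plants that pairs with mRNAs of NF-YA, the A subunit of the nuclear factor Y complex. NF-YA joins the NF-YB and NF-YC subunits and gives the complex its contact with the CCAAT box, a short element in many promoters. Plant miRNAs pair with their targets along nearly their whole length and direct cleavage of the mRNA. In Arabidopsis, miR169 lowers the mRNA of NF-YA genes that act in drought and nutrient responses. The first base matters for sorting in that species, where the Argonaute protein AGO1 mainly holds small RNAs that start with U and AGO5 holds those that start with C.

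The 8 mature sequences are shown because the family splits by their first and last bases. Each runs 5′ to 3′ as deposited, with the seed, bases 2 to 8, in capitals.

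miR169c/r: cAGCCAAGgaugacuugccgg

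miR169a/b: cAGCCAAGgaugacuugccga

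miR169i/j/k: uAGCCAAGgaugacuugccug

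miR169p: uAGCCAAGgaugacuugccgg

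miR169f/g/h: uAGCCAAGgaugacuugccua

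miR169o: uAGCCAAGaaugacuugccua

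miR169l: uAGCCAGGgaugauuugccug

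miR169m/n/q: uAGCCAAGaauggcuugccua

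All 8 are 21 nt long, and 7 share the seed AGCCAAG, while miR169l alone has AGCCAGG. Positions are counted from 1 at the 5′ end, and changes are given from miR169c/r. miR169a/b differs from miR169c/r by G21A alone, and miR169p by C1U alone. The change C1U is shared by the 6 sequences that start with U, and G21A by the 4 that end with A. miR169l carries A7G in the seed and C14U besides. Pairs of sequences differed at 1 to 5 positions. Because the authors added reads that differ by up to 2 bp in length, a read can count for more than 1 sequence. Pairs that share a run of at least 18 nt were taken as able to share reads. This held for 10 of the 28 pairs, all among miR169c/r, miR169a/b, miR169i/j/k, miR169p and miR169f/g/h. The limit is a wide one. The run of miR169c/r and of miR169a/b with miR169i/j/k and with miR169f/g/h was 18 nt. That is shorter than a 21 nt sequence less 2 bp. miR169c/r shares a run of 20 nt with miR169a/b and with miR169p, so values of these close relatives are not fully independent. miR169o, miR169l and miR169m/n/q share no such run with any other member.

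The silk libraries held 5775303 (MS) and 5205129 (PS) clean reads and the pollen libraries 3638941 (MP) and 10575042 (GP). Levels are in TPM, reads per 1000000 clean reads, where 1 read equals 0.173 TPM in MS, 0.192 in PS, 0.275 in MP and 0.0946 in GP. A count of 0 allows up to 3 reads, which is 0.519, 0.576, 0.824 and 0.284 TPM in the same order. All members have the same length, so their TPM can be compared with each other. Intervals are exact at 95%. Like the limits for 0 reads, they cover counting error alone, as amplified reads that carry no molecular identifier need not stem from separate molecules. Reads of all known miRNAs differed strongly between tissues, so that a scaling to known miRNAs in place of clean reads shifts each silk to pollen log2 ratio by -2.56 to -3.53.

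miR169 was a silk family with a trace in pollen. The summed level of the 8 sequences was 603 TPM in MS and 977 in PS, from 3481 and 5086 reads, but 3.57 in MP and 2.27 in GP, from 13 and 24 reads. The level in PS was above that in MS beyond counting error, and both silk libraries lay far above both pollen libraries, which overlapped each other. Of the reads of known miRNAs, miR169 took 1.87% in MS (1.81% to 1.93%) and 2.71% in PS (2.64% to 2.79%), against 0.0655% in MP (0.0349% to 0.112%) and 0.0544% in GP (0.0349% to 0.0810%). A sum can count a read more than once where sequences overlap. The family ranked 9 of the 27 known families by reads in every library. In whole tissues, fewer cells that make a miRNA and less of it per cell cannot be told apart.

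The 2 sequences that start with C carried the family in silks. miR169c/r (zma-miR169c and zma-miR169r) had 2033 reads in MS and 3010 in PS, against 1 in MP and 3 in GP, which is 352 and 578 TPM against 0.275 and 0.284. miR169a/b (zma-miR169a and zma-miR169b) had 1407 reads in MS and 1979 in PS, against 5 in MP and 2 in GP, which is 244 and 380 TPM against 1.37 and 0.189. In both silk libraries miR169c/r was the most abundant member and miR169a/b the next. The names miR169c and miR169r differ by 9 reads in MS and 6 in PS although their mature sequence is the same, and the higher count was used. Names of the other shared sequences had identical counts.

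The sequences that start with U were scarce in all tissues. miR169i/j/k (zma-miR169i, zma-miR169j and zma-miR169k) had 18 reads in MS and 33 in PS, against 3 in MP and 10 in GP, or 3.12 and 6.34 TPM against 0.824 and 0.946. miR169p (zma-miR169p) had 19 reads in MS and 38 in PS, against 1 in MP and 0 in GP, or 3.29 and 7.30 TPM against 0.275 and 0. By TPM both were higher in each silk library than in each pollen library, though for miR169i/j/k this order turned with scaling to known miRNAs. miR169f/g/h (zma-miR169f, zma-miR169g and zma-miR169h) had 2 reads in MS and 18 in PS, against 0 in MP and 4 in GP, or 0.346 and 3.46 TPM against 0 and 0.378, so its level in MS was like that in GP and only PS stood out. miR169l (zma-miR169l), the member with the altered seed, was seen in PS alone, with 8 reads or 1.54 TPM.

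The remaining members had too few reads to show whether they followed the silk pattern. miR169o (zma-miR169o) had 3 reads in MP and 5 in GP, against 1 in MS and 0 in PS, or 0.824 and 0.473 TPM against 0.173 and 0. It was the single member whose TPM in each pollen library exceeded that in each silk library. miR169m/n/q (zma-miR169m, zma-miR169n and zma-miR169q) had 1 read in MS and none elsewhere. With so few reads neither was shown to differ in TPM in the 4 comparisons made. In pollen, 1 of the 8 sequences reached 10 reads in MP or GP, against 5 of 8 in MS or PS.

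**Figure D1:**
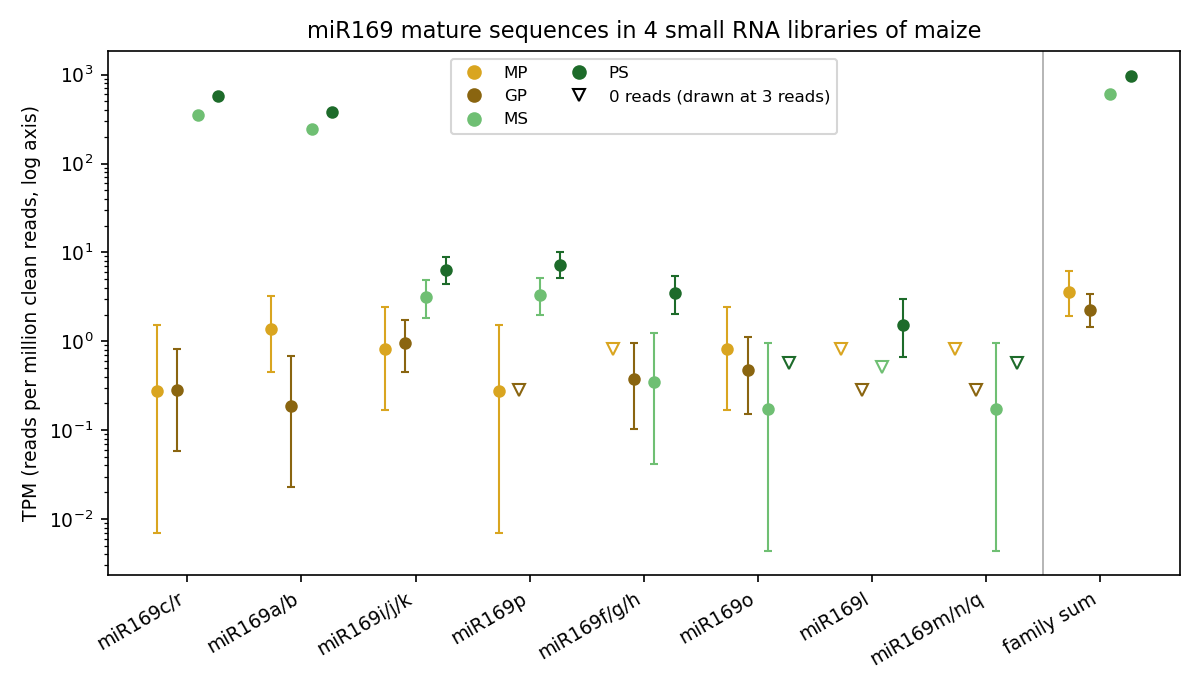
Level of each miR169 mature sequence and of the family sum in MP, GP, MS and PS, in TPM on a log axis. Points are single libraries, bars are exact 95% Poisson intervals of the read count, and open triangles mark 0 reads, drawn at the level of 3 reads; miR169c/r and miR169a/b reach 244 to 578 TPM in silks while every other point of a single sequence lies at or under 7.30 TPM.

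The make-up of the family, which does not depend on the scaling between libraries, differed between silk and pollen. Sequences that start with C had 98.8% of the miR169 reads in MS (98.4% to 99.2%) and 98.1% in PS (97.7% to 98.5%). They had 46.2% in MP (19.2% to 74.9%, 6 of 13 reads) and 20.8% in GP (7.13% to 42.2%, 5 of 24 reads). The silk and pollen intervals did not overlap. By 2-sided Fisher's exact test the share was higher in MS than in MP (p = 9.47e-11) and higher in PS than in GP (p = 4.91e-28). GP and MP were not shown to differ (Fisher's exact test, p = 0.143). PS had a slightly lower share than MS (Fisher's exact test, p = 0.00862, Benjamini-Hochberg 0.0115 over the 4 comparisons), a difference of -0.729 percentage points, or -0.533 with miR169p left out.

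In pollen, miR169i/j/k and miR169o, minor in silks, held larger shares in both libraries, as did miR169f/g/h in GP. The share of miR169c/r was smaller, while that of miR169a/b was not shown to differ between MS and MP. miR169a/b had the largest share in MP, 38.5% (5 of 13 reads), against 40.4% in MS (Fisher's exact p = 1), but 8.33% in GP against 38.9% in PS (Fisher's exact p = 0.00129, Benjamini-Hochberg 0.00452). miR169i/j/k had 23.1% of the family reads in MP and 41.7% in GP, against 0.517% in MS and 0.649% in PS. The difference between PS and GP had p = 1.04e-15 and that between MS and MP p = 5.15e-05 by Fisher's exact test. miR169o had 23.1% in MP and 20.8% in GP, against 0.0287% in MS and 0% in PS, where 0 reads allow at most 0.0725%. Fisher's exact test gave p = 1.61e-07 for MS against MP and p = 1.47e-12 for PS against GP. miR169f/g/h had 16.7% in GP against 0.354% in PS (Fisher's exact p = 2.59e-06, Benjamini-Hochberg 1.81e-05), but 0 reads in MP. miR169c/r had 7.69% in MP against 58.4% in MS (Fisher's exact p = 0.000221, Benjamini-Hochberg 0.000884). In GP miR169c/r had 12.5%, against 59.2% in PS (Fisher's exact p = 3.28e-06, Benjamini-Hochberg 1.83e-05). These tests of single shares, 28 in all, were added after the data were seen, and the 4 p-values for miR169i/j/k and miR169o also passed Benjamini-Hochberg adjustment over the 28. The pollen shares rest on 13 and 24 reads.

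**Figure D2:**
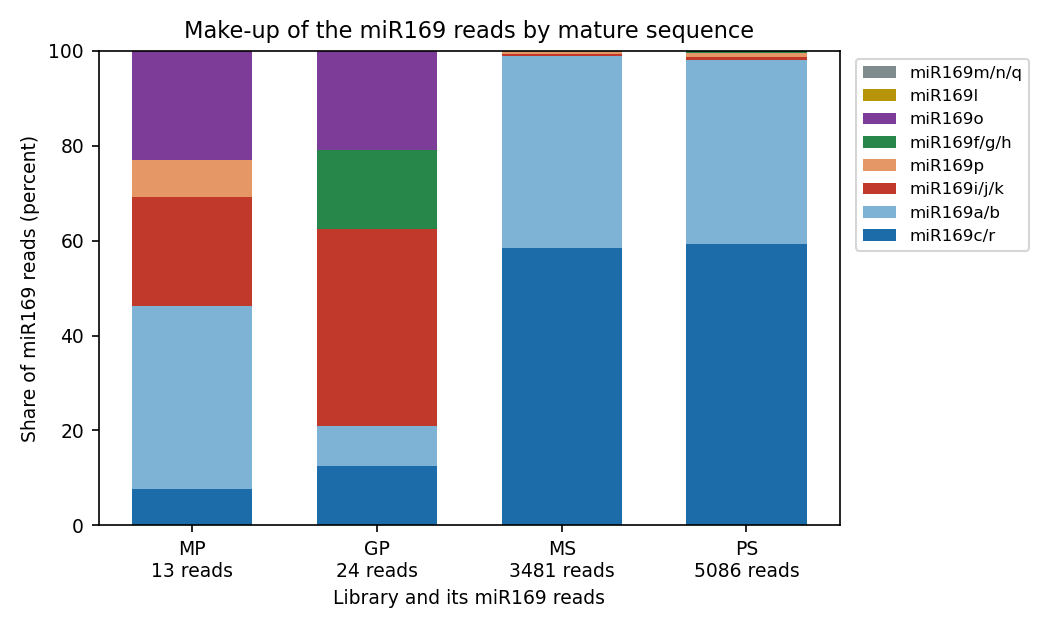
Share of the miR169 reads held by each mature sequence in MP, GP, MS and PS, in percent, with the number of miR169 reads under each bar. miR169c/r and miR169a/b fill 98.8% of the bar in MS and 98.1% in PS, but 46.2% in MP and 20.8% in GP.

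Within the abundant pair the balance was the same in both silks to within counting error. miR169c/r had 59.1% of the reads of the pair in MS (57.4% to 60.7%) and 60.3% in PS (58.96% to 61.7%), and Fisher's exact test gave p = 0.258. The split by the last base was not shown to differ between libraries. Sequences that end with G had 59.5% of family reads in MS, 60.7% in PS, 38.5% in MP and 54.2% in GP, with p from 0.158 to 0.534 over the 4 pairs of libraries by Fisher's exact test, which was added after the data were seen. In pollen the few reads leave wide intervals for this share, 13.9% to 68.4% in MP and 32.8% to 74.4% in GP.

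GP was compared with MP to ask what germination changes. The summed level was 2.27 TPM in GP and 3.57 in MP, a ratio of 0.635 (0.311 to 1.36), which is a log2 ratio of -0.65, and Fisher's exact test gave p = 0.189. No direction can be given, because scaling to known miRNAs by TMM turned the log2 ratio to 0.74 and by median ratio to 0.47, whereas TMM over all 4 libraries gave -1.16 (Fisher's exact p = 0.0223). Of the 8 sequences 3 had enough reads for a ratio, and 0 passed the limits set for a call, p under 0.01 together with a log2 ratio whose size is over 1.5. Over all sequences with a ratio, 18.3% passed as higher in GP and 13.4% as lower. The member nearest the limits was miR169a/b, with 2 reads in GP against 5 in MP, a log2 ratio of -2.86 (ratio 0.138, 0.0131 to 0.841, Fisher's exact p = 0.0143, Benjamini-Hochberg 0.0280). A chi-square test put the same 7 reads past the limit, with p = 0.00547.

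PS was compared with MS to ask what pollination changes in the silk. The family rose from 603 to 977 TPM, 1.62-fold (1.55 to 1.69), with p = 3.78e-109 by Fisher's exact test of the 2 libraries. This log2 ratio of 0.70 was under the size limit of 1.5, and it was 0.39 to 1.14 under other scalings. miR169c/r, 1.64-fold higher in PS (1.55 to 1.74), and miR169a/b, 1.56-fold higher (1.46 to 1.67), moved together with intervals that overlap. miR169i/j/k was 2.03-fold higher (1.11 to 3.84, Fisher's exact p = 0.0164) and miR169p 2.22-fold higher (1.25 to 4.08, Fisher's exact p = 0.00489). All 6 sequences with a ratio were higher in PS, with a median log2 ratio of 1.09 against 0.37 over all known sequences. This count depends on which members had enough reads. miR169l entered through its reads in PS alone, with 0 in MS. miR169o and miR169m/n/q, each with 1 read in MS and 0 in PS, had too few for a ratio. Close relatives among the 6 can also share reads, so their directions are not independent.

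Past both limits, 2 of the 8 members were higher in PS and 0 lower. Over all sequences with a ratio the shares were 10.1% and 4.59%. miR169f/g/h was 9.99-fold higher, with 18 reads against 2, a log2 ratio of 3.32 and an interval of the ratio from 2.39 to 88.7 (Fisher's exact p = 0.000134, Benjamini-Hochberg 0.000505). From the same reads, its share of the family was 0.354% in PS against 0.0575% in MS (Fisher's exact p = 0.00497, Benjamini-Hochberg 0.0154). miR169l, with 8 reads against 0, was 2.96-fold higher when the 0 was set to 3 reads, a log2 ratio of 1.57 (Fisher's exact p = 0.00255, Benjamini-Hochberg 0.00713). This ratio takes the 8 reads as exact, so it has no interval and is not a lower limit. miR169l passed the size limit only narrowly, and it did not pass under 4 of the 5 scalings to known miRNAs, while miR169f/g/h passed under all 5. With a silk count over 10 times that of both pollen libraries required as well, miR169l alone passed, and with over 10 times that of at least 1 of them required both passed. With 0 reads in both pollen libraries, miR169l meets either rule at any silk count. miR169f/g/h missed the stricter rule through 4 reads in GP, and these counts are not scaled for the larger GP library. The share of miR169l in the family in PS, 0.157%, was not shown to differ from that in MS after adjustment (Fisher's exact p = 0.0248, Benjamini-Hochberg 0.0694). The calls rest on 20 reads in all for miR169f/g/h and 8 for miR169l.

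Because PS held pollen, the level of pollen miRNAs in it was measured. Sequences of pollen type were those whose TPM in MP or GP was 5 or more and no less than 5 times that in MS. The 22 such sequences summed to 22.0 TPM in MS and 6.92 in PS, against 276 in MP and 574 in GP. In PS 15 of the 22 had 0 reads, against 3 in MS. None of the 22 was a miR169 sequence, and none could be. No member reached 5 TPM in MP or GP, the highest being miR169a/b with 1.37 in MP. miR169f/g/h had 0.378 TPM in GP and 3.46 in PS, a log2 ratio of 3.19 that was 0.08 to 0.17 with scaling to known miRNAs within the pair and -0.23 by median ratio over the 4 libraries. miR169l had 0 reads in both pollen libraries. The part of pollen RNA in the levels of PS was not tested.

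MS was compared with MP as silk against pollen before they meet. The family level was 603 TPM against 3.57, a 168.7-fold difference (98.5 to 317) with a log2 ratio of 7.40, and it was at least 3.87 under every scaling tried. Of the 8 sequences 4 had a ratio, and 3 passed the limits as higher in MS. Of all sequences with a ratio 40.2% passed as higher and 18.8% as lower, and of the known ones 71.1% as higher. miR169c/r was 1281-fold higher, though against a single read in MP the interval ran from 229.7 to 50620, and miR169a/b was 177-fold higher (75.8 to 547). miR169p was 11.97-fold higher (1.90 to 497, Fisher's exact p = 0.000974), a call lost with scaling to known miRNAs. miR169i/j/k was 3.78-fold higher (1.10 to 20.0, Fisher's exact p = 0.0238), short of the limits, and its log2 ratio turned from 1.92 to between -0.64 and -1.61 with scaling to known miRNAs.

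PS and GP, the tissues after pollination and germination, gave the same contrast with more members. The family level was 977 TPM against 2.27, 431-fold higher in PS (289 to 673), with a log2 ratio of 8.75. Of the 8 sequences 6 had a ratio and all 6 passed as higher in PS. Of these, miR169p and miR169l had 0 reads in GP and entered through PS alone. miR169o, with 0 reads in PS and 5 in GP, had no ratio, since with 0 set to 3 reads its direction turned. Of all sequences with a ratio 55.2% passed as higher and 26.1% as lower, and of the known ones 75.9% as higher. miR169c/r was 2038-fold and miR169a/b 2010-fold higher, and miR169p was 25.7-fold higher with its 0 reads in GP set to 3. miR169i/j/k was 6.70-fold higher (3.23 to 15.3), miR169f/g/h 9.14-fold (3.01 to 37.1) and miR169l 5.42-fold with its 0 set likewise. The ratios of miR169p and miR169l take the PS count as exact and have no interval. The split depended on the scaling. Relative to known miRNAs within the pair of libraries, by TMM, by median ratio or by their total, 3 members were higher (miR169c/r, miR169a/b and miR169p) and 1 was lower (miR169o, 0 reads against 5). Under these scalings the log2 ratio of miR169i/j/k turned to between -0.28 and -0.36 and that of miR169f/g/h fell to between 0.08 and 0.17, and a median ratio over all 4 libraries turned it to -0.23.

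The silk against pollen difference was larger in the 2 sequences that start with C than in the 2 that start with U and had reads in both PS and GP. The log2 ratio of PS to GP was 10.99 for miR169c/r and 10.97 for miR169a/b, and 2.75 for miR169i/j/k and 3.19 for miR169f/g/h, with intervals of the first pair (9.44 to 13.27 and 9.12 to 14.02) above those of the second (1.69 to 3.93 and 1.59 to 5.21). Both miR169i/j/k and miR169f/g/h carry G20U besides C1U, so the first base cannot be told apart from base 20 here. miR169p, which carries C1U alone, and miR169l also start with U but had 0 reads in GP. Their log2 ratios of 4.69 and 2.44 have no upper limit, so they cannot be placed. In MS against MP the interval of miR169p (0.93 to 8.96) overlapped those of miR169a/b (6.24 to 9.10) and miR169c/r (7.84 to 15.63). The difference thus was not shown for all sequences that start with U.

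Other families were set beside miR169 by counts and medians alone. Among 4 other families abundant in silk, miR164, miR167, miR171 and miR827, the median log2 ratio of PS to MS was 1.04 over 14 sequences and 2 passed as higher, and that of PS to GP was 7.10. The paper described members of these families as abundant in silks and nearly absent from pollen in these same libraries. Their high median of PS to GP therefore follows from the choice and is no yardstick for miR169. Among families tied to nutrient supply, miR395, miR397, miR398, miR399, miR408, miR528 and miR827, the medians were 0.60 over 10 sequences and 4.24. For miR169 the corresponding medians were 1.09 and 3.94, each over 6 sequences. The medians of PS to GP hold ratios with 0 reads set to 3, 8 of 14 ratios in the first list, 5 of 10 in the second and 2 of 6 in miR169, so they are not exact values. By family sums, miR169 ranked 8 of 22 families from the highest for PS against MS, 4 of 23 for MS against MP and 5 of 24 for PS against GP. The profile over the 4 libraries most like that of the family sum was that of miR171d/e/i/j, which pairs with mRNAs of GRAS family transcription factors, with 652 TPM in MS and 1826 in PS, against 3.30 in MP and 4.16 in GP. Next came miR167e/f/g/h/i/j, which pairs with auxin response factor mRNAs, and miR408/b, which pairs with mRNAs of copper proteins. Likeness was the distance between centred log2(TPM + 1) values over the 4 libraries, 0.7997, 0.952 and 1.68 for these, against a median of 4.85 over 41 other known sequences.

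The deposited table lists predicted targets, and for miR169 these included genes of NF-YA subunits. It gave 10 genes, 32 transcripts and 33 distinct sites of 21 nt. By their descriptions 5 genes encode NF-YA subunits, 4 had no description, and 1, GRMZM2G101300, encodes a long chain acyl-CoA synthetase, an enzyme that activates fatty acids. None of the 10 was listed for any other known family or predicted miRNA of the table. GRMZM2G078124 was the single gene listed for all 8 sequences, at positions 545 to 565 of its transcript GRMZM2G078124_T01 and 1315 to 1335 of GRMZM2G078124_T02. It had a further site nearer the 5′ end of the former, listed for miR169i/j/k, miR169p, miR169f/g/h and miR169l. In the RefSeq annotation (Zm-B73-REFERENCE-NAM-5.0) it lies beside MIR169j with no gene between them. Of the 10 genes 7 had a RefSeq entry, and all 16 miRNA names matched 1 of the 18 RefSeq MIR169 genes.

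The NF-YA targets split by the last base of the miRNA, which in pairing meets the first base of the site. The genes described as NF-Y subunits A10 (GRMZM2G165488), A6 (GRMZM5G829103) and A2 (GRMZM5G853836) were each listed for all 4 sequences that end with A and for 0 of the 4 that end with G. The gene described as subunit A3 (GRMZM2G000686) was listed for 3 sequences that end with G, all but miR169l, and for 0 that end with A. The gene described as subunit A5 (GRMZM5G857944) was listed for all 4 that end with G and, of the others, for miR169f/g/h. In these lists miR169c/r and miR169a/b, which differ by G21A alone, thus shared GRMZM2G078124 and GRMZM5G838907 but no gene described as an NF-YA subunit. The paper kept only targets with fewer than 3 mismatches to the miRNA. A mismatch at the last base can therefore decide whether a gene is listed. Whether these sequences differ in the mRNAs they act on was not tested. miR169l had the shortest list, 2 genes, and miR169i/j/k, miR169f/g/h and miR169o the longest, with 6 each. GRMZM2G101300 was listed for miR169o alone.

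Both sets of NF-YA targets were listed for an abundant silk sequence. The sequences listed for GRMZM2G165488, GRMZM5G829103 and GRMZM5G853836 summed to 244 TPM in MS and 384 in PS, against 2.20 in MP and 1.04 in GP, of which miR169a/b made up nearly all in silks. Those listed for GRMZM2G000686 summed to 358 TPM in MS and 592 in PS, against 1.37 in MP and 1.23 in GP, in silks mostly miR169c/r. miR169f/g/h, called higher in PS, was listed for 4 of the 5 NF-YA genes, with GRMZM2G000686 the exception, and miR169l for GRMZM5G857944 alone of them. The levels of the target mRNAs were not analysed here, and the sites are predictions.

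**Figure D3:**
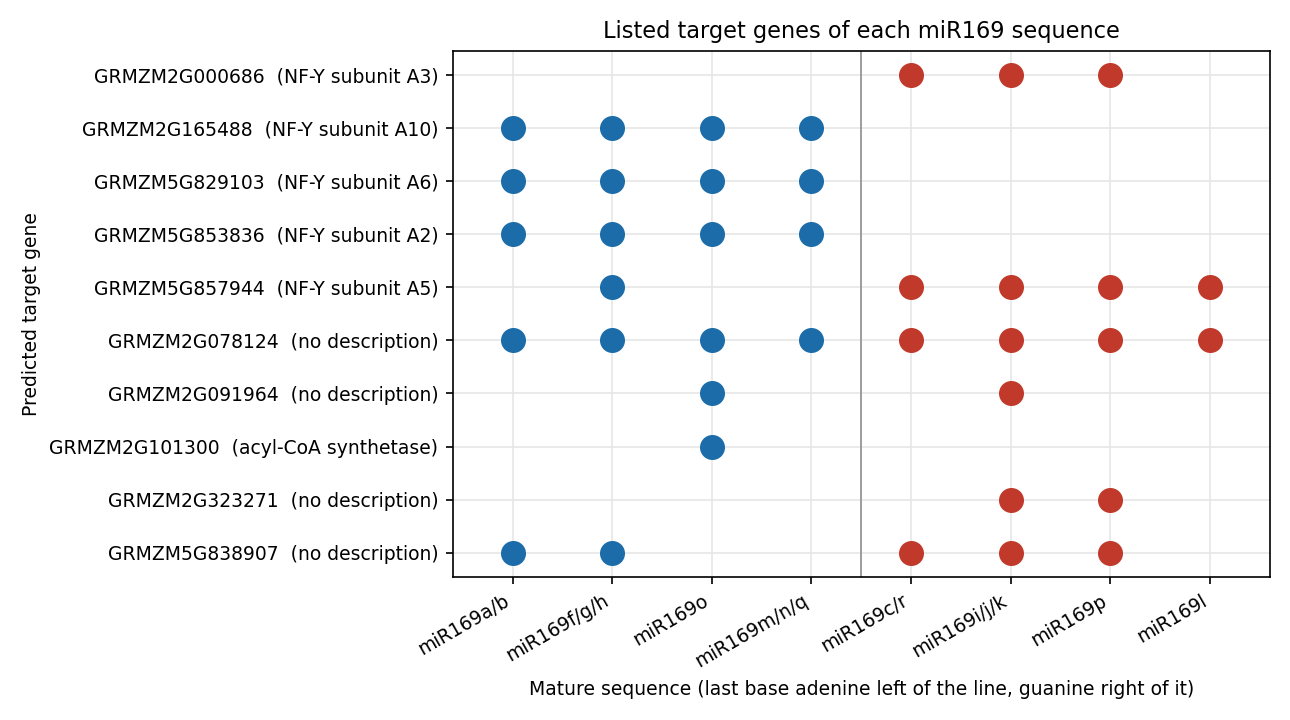
Predicted target genes (rows, with the description in brackets) listed for each miR169 mature sequence (columns, with the last base adenine left of the line and guanine right of it). A dot marks a listed gene; the genes described as subunits A10, A6 and A2 have dots in all 4 columns on the left and in 0 on the right, and the gene described as A3 has 3 dots, all on the right.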

How the data were processed

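Small RNA of 18 to 30 nt was gel-purified, amplified by 18 cycles of RT-PCR and sequenced, with 1 library each of MP, GP, MS and PS. The authors removed adaptors and low-quality reads, mapped clean reads to B73 RefGen_v2 with SOAP, dropped reads of rRNA, tRNA and snoRNA, and searched miRBase with Blastn. The deposited counts are raw reads for each named miRNA, to which the authors added reads up to 2 bp longer or shorter. The TPM values deposited beside them are counts per 1000000 clean reads, not scaled by length. The deposited p-values and ratios between libraries are the authors' own and were not used. All columns of counts and TPM were mapped to a library.

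Each distinct mature sequence was analyzed once, with the counts of its name with the most reads. Libraries were compared by 2-sided Fisher's exact tests against all other clean reads, and p-values were adjusted by Benjamini-Hochberg over all distinct sequences with a ratio, known and predicted. A call needed p under 0.01 together with a log2 ratio whose size is over 1.5. A count of 0 was set to 3 reads for a ratio, and no ratio was formed from counts of at most 3 in both libraries or where the ratio so set fell on the other side of 1. A ratio with a 0 set to 3 takes the other count as exact and has no interval. Intervals of shares are Clopper-Pearson and those of ratios are derived from them. edgeR (4.0.16) and DESeq2 (1.42.0) in R (4.3.3) gave TMM factors and size factors (median ratio) for other scalings only, from the distinct known sequences. These were taken over the 2 libraries compared and also over all 4, and the choice between them was made after values were seen. Other alternatives were the count of the name with the fewest reads, 1 entry per name, a filter of 10 reads, 1 added read, a chi-square test and a log2 limit of 1. Tests used SciPy (1.17.1) and were tested on simulated data. The members, lists and rules were chosen with earlier results of these data known. All miR169 sequences and all their listed target genes are named, and the 3 most alike sequences of other families with at least 10 reads in a library. RefSeq gene records were used for names and neighbours only, since their build differs from that of the files.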

Additional observations from a re-analysis of the deposited data

Results flagged for a closer look

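For the family sum, PS was above MS while GP was below MP, and the log2 ratio of PS to MS exceeded that of GP to MP by 1.35. For miR169a/b the difference was 3.503, from 0.64 in silks and -2.86 in pollen. Each tissue had 1 library, so these differences were not tested, and the pollen side rests on 13 and 24 reads for the family and on 5 and 2 for miR169a/b. For the family sum the pollen log2 ratio turned positive under 3 of the scalings tried, with values of 0.74, 0.47 and 0.023.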

How the results depend on the processing

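No paired analysis was possible because each tissue had 1 library, and for the same reason no library could be left out in turn. Scaling to known miRNAs within the pair shifted log2 ratios by 1.40 (TMM), 1.12 (median ratio) and 0.39 (known total) for GP against MP, by -0.24, -0.31 and -0.16 for PS against MS, by -3.35, -3.53 and -2.56 for MS against MP, and by -3.07, -3.02 and -3.11 for PS against GP. The family sum of GP against MP turned to 0.74, 0.47 and, with median ratio over 4 libraries, 0.023, while TMM over 4 libraries gave -1.16. That of PS against MS stayed above 0 at 0.39 to 1.14. For MS against MP it stayed at 3.87 to 7.40, and for PS against GP at 5.33 to 8.75. The most abundant sequence alone, miR169c/r, gave 10.32 and 10.99 in these comparisons. miR169i/j/k reversed to -1.43, -1.61 and -0.64 for MS against MP, to -0.33, -0.28 and -0.36 for PS against GP, and to -0.080 for GP against MP with 1 read added. With factors over 4 libraries it reversed to -1.43 (TMM) and -1.27 (median ratio), to -0.34 and -0.67, and to -0.31 (TMM) in these comparisons, and miR169f/g/h to -0.23 (median ratio) for PS against GP. miR169o reversed to 0.59 (TMM) and 0.32 (median ratio) for GP against MP. Calls for GP against MP went from 0 to 1 (miR169a/b) with the chi-square test and with TMM over 4 libraries. Calls for PS against MS went from 2 to 1 (miR169f/g/h) under TMM over either set, median ratio, known total and the filter of 10 reads, to 1 (miR169l) with a silk count over 10 times that of both pollen libraries, to 4 with 1 entry per name, and to 3, with miR169p added, under median ratio over 4 libraries and a log2 limit of 1. One entry per name gave 5 calls for MS against MP and 12 for PS against GP. Calls for PS against GP were 6 higher in the main analysis, 3 higher and 1 lower under 4 scalings, and 2 higher and 1 lower (3 in all) with median ratio over 4 libraries. With miR169p left out, the share starting with C differed by -0.533 percentage points between PS and MS (Fisher's exact p = 0.0124). The most abundant sequence alone gave no value for GP against MP, since both counts were at or under 3. In pollen 1 of the 8 sequences reached 10 reads.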

Other observations

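Some miR169 genes lie together in the maize genome by the RefSeq annotation. MIR169e overlaps MIR169h, and MIR169d and MIR169i are neighbours with 0 genes but 266225 bases between them. MIR169d and MIR169e have no name among the entries analysed here. Their neighbours' sequences, miR169f/g/h and miR169i/j/k, are each given by 3 names with identical counts, so the reads cannot be assigned to 1 of these genes.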
